A study of Rattus norvegicus with 4 samples.

Results

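The amino acid transporter families Slc1, Slc3, Slc6, Slc7, Slc38 and Slc43 were described in 4 rat mammary cancers. Members were taken by symbol, as genes whose name begins with one of these family names followed by a member number, from probe sets annotated to a single gene. The rule gave 50 genes on 69 probe sets, of 14217 named genes and 31099 probe sets in all. Of the 50, 49 are members of these families, and Slc7a6os, the gene on the opposite strand of Slc7a6, matched by its letters alone and is not a transporter. A further 12 symbols of the RefSeq gene table follow the same pattern but had no named probe set, among them Slc43a3, Slc6a19 and Slc1a7, and were not analysed here.

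The cancers arose in female Sprague-Dawley rats given a single whole-body exposure of 0.5 Gy carbon ions (290 MeV/u, spread-out Bragg peak of 6 cm) when 7 weeks old. From 9 weeks of age the animals ate an AIN-76A diet with 23.5% corn oil. All 4 tumours (numbered 1 to 4 as in the labels) form 1 group with 1 array each, all carry the same exposure and diet, and the labels do not state whether they came from different rats. Unirradiated or normal tissue was not analysed here, so the values describe these cancers and how they differ from each other, not an effect of radiation, and no difference has a replicate check or a p-value.

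Values are log2(intensity + 16), with the arrays aligned so that the median of all non-control probe sets lay at 7.83 on each. For bright genes 1 unit of it equals 2-fold, while for dim genes it understates the change. Probes differ in brightness for reasons other than transcript number, so levels are read against the array median and between tumours, not between genes. The median signal of the arrays before alignment was 202 to 222, with a trimmed mean of 500.1 on each, and no pair of arrays was identical. Of the 10 luminal epithelial markers examined, all 10 were above the array median in all 4 tumours, as were 9 of 10 basal markers, so epithelial markers were present in each.

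Amino acid transporters are membrane proteins that move amino acids along or against their gradients, by exchange, by coupling to sodium, or by facilitated diffusion. Several light chains of the Slc7 family reach the cell surface only when bound by a disulphide bridge to a heavy chain of the Slc3 family. The imported leucine, arginine and glutamine supply protein synthesis and are sensed at the lysosome by the mTORC1 kinase complex, and a shortage of amino acids activates the transcription factor Atf4, whose targets include several of these carriers. The mammary gland is known for high amino acid uptake, because it builds milk proteins from it.

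The bases before the transcription start are shown for 5 members whose values are described below: Slc7a7, which differed most among members above the median in all tumours, Slc38a5, high in tumour 1, and Slc7a1, Slc38a1 and Slc1a4, whose windows hold the core of an amino acid response element, the sequence bound by Atf4. Each line gives the 250 bases before the start in RefSeq assembly GRCr8, on the gene's own strand. The windows are chr15:31835684-31835933 (minus strand), chrX:16894471-16894720 (minus strand), chr12:11664238-11664487 (plus strand), chr7:129681402-129681651 (minus strand) and chr14:98761563-98761812 (minus strand). Capitals mark matches, on either strand, to the amino acid response core TGATGNAA, the E-box CACGTG, the antioxidant response core TGANNNNGC, the GC box GGGCGG and the CCAAT box CCAAT.
Slc7a7: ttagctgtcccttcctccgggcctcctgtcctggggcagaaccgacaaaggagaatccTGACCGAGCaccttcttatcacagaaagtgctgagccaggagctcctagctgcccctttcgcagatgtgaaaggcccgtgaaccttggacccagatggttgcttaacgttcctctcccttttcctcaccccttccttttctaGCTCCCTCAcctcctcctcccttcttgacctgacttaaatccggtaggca
Slc38a5: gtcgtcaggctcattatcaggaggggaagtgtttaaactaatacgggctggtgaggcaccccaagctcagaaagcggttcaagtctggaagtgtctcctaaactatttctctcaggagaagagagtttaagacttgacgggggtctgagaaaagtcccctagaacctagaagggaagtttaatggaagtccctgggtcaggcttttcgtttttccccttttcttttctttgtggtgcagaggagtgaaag
Slc7a1: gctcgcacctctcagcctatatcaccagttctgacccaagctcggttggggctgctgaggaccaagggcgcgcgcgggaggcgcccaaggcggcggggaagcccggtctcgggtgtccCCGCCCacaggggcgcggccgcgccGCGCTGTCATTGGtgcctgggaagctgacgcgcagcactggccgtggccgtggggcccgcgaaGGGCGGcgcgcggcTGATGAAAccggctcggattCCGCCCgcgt
Slc38a1: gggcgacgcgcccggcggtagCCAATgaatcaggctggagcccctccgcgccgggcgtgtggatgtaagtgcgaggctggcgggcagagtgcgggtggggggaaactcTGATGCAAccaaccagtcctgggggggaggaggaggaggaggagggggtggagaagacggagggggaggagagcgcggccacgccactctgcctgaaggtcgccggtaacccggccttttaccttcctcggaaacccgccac
Slc1a4: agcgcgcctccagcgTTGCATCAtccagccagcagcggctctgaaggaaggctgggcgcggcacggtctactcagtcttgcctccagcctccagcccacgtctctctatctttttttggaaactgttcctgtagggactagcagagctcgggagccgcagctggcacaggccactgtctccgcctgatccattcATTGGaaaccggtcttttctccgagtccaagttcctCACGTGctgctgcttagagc

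Promoter windows were matched for 38 of the 50 members. The amino acid response core lay in 3 of them, against 3.27% of 27457 promoters of the same length: it began 30 bases before the start of Slc7a1, 142 before that of Slc38a1 and 235 before that of Slc1a4. The E-box was in 6 of the 38, among them Slc7a5, Slc43a1 and Slc1a4, against 5.79% of all promoters. The GC box was in 17 of the 38 (32.4% of all), the antioxidant core in 12 (34.6%) and the CCAAT box in 8 (34.3%). The median share of G and C bases was 58.6% in the member windows and 52.0% in all promoters. The motif shares do not take this difference into account. In Slc7a1 the CCAAT box and the antioxidant core overlap, so they are not separate matches. Slc38a5 had no match to any of the 5 motifs, which says only that these letters are not in this window. A match is a run of letters and not evidence of binding.

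A smaller share of the transporter genes than of named genes in general lay above the array median, as a description without a test. Of the 50 members, 17 lay above the median in all 4 tumours, against 60.6% of all named genes, and 21 lay below it in all 4, against 28.4%. The other 12 were above it in 1 to 3 tumours. The members just inside the threshold were Slc6a20a, with a lowest value of 8.16, and Slc1a5, with 8.18. Just outside it were Slc7a8 and Slc1a3, each above the median in 3 tumours and at 7.42 and 7.43 in tumour 4.

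**Figure D1:**
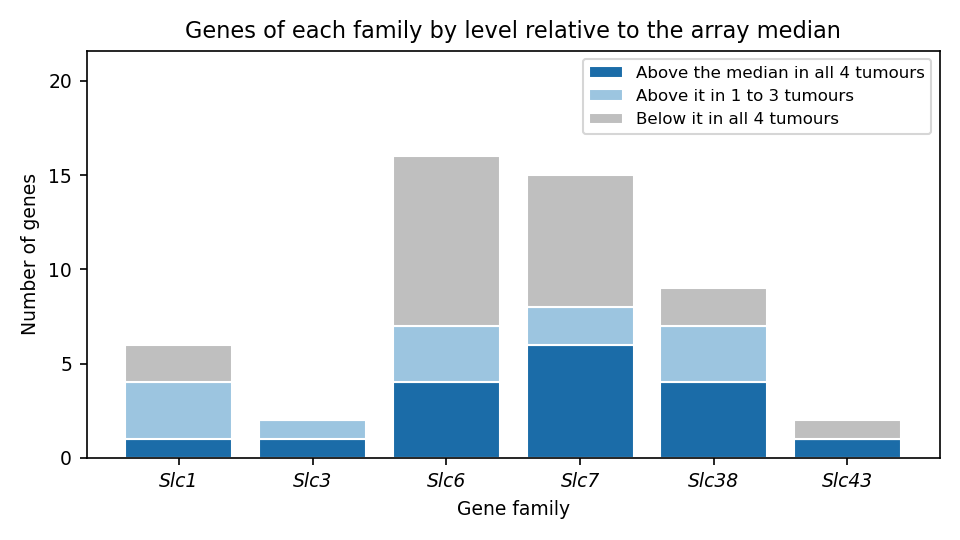
Number of member genes per family (vertical axis), stacked by whether the gene lay above the array median in all 4 tumours, in 1 to 3, or in none. Slc6 has 9 of its 16 genes below the median in all 4 tumours, whereas Slc38 has 2 of 9.

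Slc3a2, the CD98 heavy chain that carries most Slc7 light chains to the plasma membrane, was among the steadiest members. It measured 12.45, 12.44, 12.32 and 12.37 in tumours 1 to 4, a mean of 12.39 ± 0.06 (SD, n = 4), and its range of 0.14 was the smallest of the 29 members above the median in at least 1 tumour. The other heavy chain, Slc3a1, which pairs with Slc7a9 in kidney and gut, lay at the median, between 7.52 and 7.83, and its partner Slc7a9 was below it in all tumours, between 5.81 and 6.43.

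Among the 9 light chains, 3 were above the median in all tumours, 2 in some and 4 in none. Of the 5 in the first 2 classes, 4 had a range of at least 1 log2. Slc7a7 and Slc7a6 were of the first class, in which 9.85% of all named genes had such a range. Slc7a8 and Slc7a10 were of the second, in which 48.9% did. Slc7a7, the y+LAT1 chain that exchanges arginine and lysine for neutral amino acids, had the widest range of any member above the median in all tumours. Its values were 8.98, 11.58, 11.07 and 9.44, a range of 2.60 log2 or 6.07-fold on the log2(intensity + 16) scale. Tumours 2 and 3 were high and tumours 1 and 4 low. Slc7a6, the related y+LAT2 chain, measured 8.32, 9.34, 9.64 and 9.03, with tumour 1 lowest and a range of 1.32. Slc7a6os, its neighbour on the other strand, was also lowest in tumour 1 (8.76 against 9.02 to 9.22) but had a range of 0.45.

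Slc7a5, the LAT1 chain that imports leucine and other large neutral amino acids, was at 9.26 in tumour 1 and between 9.75 and 9.84 in the other tumours. Slc7a8, the LAT2 chain with an overlapping substrate range, ran the other way, at 8.79, 8.29, 7.99 and 7.42, highest in tumour 1 and below the median in tumour 4. Slc7a10, the Asc-1 chain that carries small neutral amino acids and is also known as a surface protein of adipocytes, was above the median in tumour 1 alone, at 8.15 against 6.77, 6.89 and 7.18. Of 4 adipocyte markers above the median in at least 1 tumour, 3 were highest in tumour 2 and none in tumour 1, and the summed deposited signal of the 9 named adipocyte markers was 3359 in tumour 1 against 4308, 2916 and 2943. Of the markers below the median in all tumours, Cidec (6.04 against 4.39 to 4.82) and Pparg (6.98 against 6.64 to 6.83) were highest in tumour 1, and the part of adipocytes in the value of Slc7a10 was not tested. Slc7a11, the cystine and glutamate exchanger of glutathione synthesis, stayed below the median in all tumours at 7.62, 7.12, 6.63 and 6.16, so the size of its range of 1.46 is uncertain. The other light chains, Slc7a12 and the kidney chain Slc7a13, were also below it throughout.

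**Figure D2:**
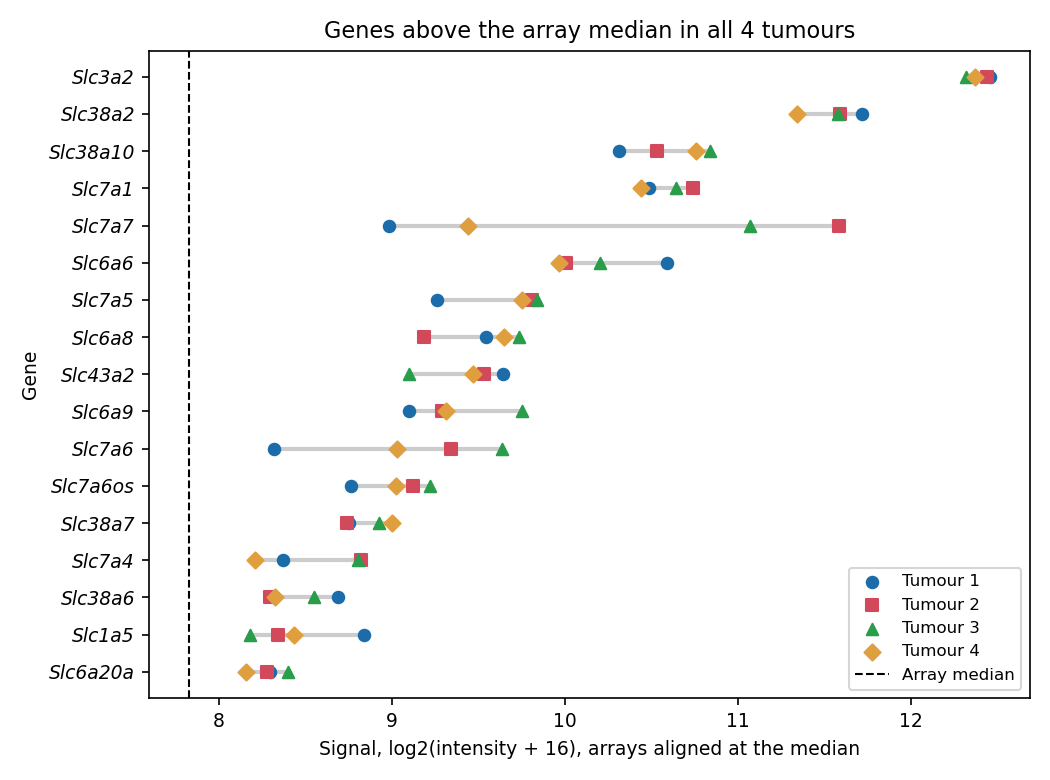
Signal of the 17 genes above the array median in all 4 tumours (horizontal axis, log2(intensity + 16), arrays aligned at the median), with 1 point per tumour and a grey bar from lowest to highest. The points of Slc3a2 lie within 0.14 of each other, while those of Slc7a7 spread from 8.98 to 11.58. The vertical order follows the mean signal and does not rank transcript numbers.

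The cationic carriers, which work without a heavy chain, held 2 genes above the median in all tumours and 3 below it. Slc7a1, the main housekeeping arginine and lysine carrier CAT1, measured 10.49, 10.74, 10.64 and 10.44 (mean 10.58 ± 0.14, SD, n = 4), a range of 0.30. Its next probe set ran 9.56, 9.91, 10.25 and 9.84, a wider range of 0.70 with tumour 1 lowest, and the third was below the median in all tumours, from 6.74 to 7.24. Slc7a4, a relative with no settled transport activity, was at 8.37, 8.82, 8.81 and 8.21, higher in tumours 2 and 3. Slc7a2 and Slc7a3, the inducible and the mainly neuronal arginine carriers, and Slc7a14 were below the median, and of these Slc7a2 had a range of 1.25 at low signal (5.52 to 6.77).

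The Slc38 family of sodium-coupled neutral carriers divided into members that were steady and members that differed up to 7.36-fold on the log2(intensity + 16) scale. Slc38a2, the amino-acid-regulated carrier SNAT2, measured 11.72, 11.59, 11.58 and 11.34 (mean 11.56 ± 0.16, SD, n = 4). Slc38a10 lay between 10.31 and 10.84, the lysosomal glutamine carrier Slc38a7 between 8.74 and 9.00, and Slc38a6 between 8.30 and 8.69. These 4 were above the median in every tumour and none had a 2-fold range.

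Slc38a3 and Slc38a5 are the system N carriers, which move glutamine and histidine together with sodium in exchange for protons, and both were high in tumour 1. Slc38a3 measured 9.51 there and 7.77, 7.26 and 6.63 in tumours 2 to 4, a range of 2.88 log2, with tumour 1 1.74 above the next. Slc38a5 measured 9.05 against 7.86, 7.47 and 7.41, with a gap of 1.19. In tumours 3 and 4 both genes were below the median, as was Slc38a3 in tumour 2. The full size of these differences is therefore uncertain. Slc38a1, a system A carrier whose window holds the amino acid response core shown above, was at 7.54, 7.89, 6.77 and 7.33, above the median in tumour 2 alone. Slc38a4, another system A carrier, known from liver, was below the median throughout, at 6.17, 7.37, 6.03 and 6.73. Slc38a9, the lysosomal arginine sensor of mTORC1, was below it too and within 0.26 log2, from 7.23 to 7.49.

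Of the Slc1 family, 1 gene was above the median in all tumours, 3 in some and 2 in none. Slc1a5, the glutamine exchanger ASCT2, measured 8.84, 8.34, 8.18 and 8.43 (mean 8.45 ± 0.28, SD, n = 4), with tumour 1 highest. Slc1a4, the related serine and alanine exchanger ASCT1, was at 8.18, 7.61, 7.22 and 7.83, also highest in tumour 1, with a range of 0.96 that reached 1 log2 with the values as deposited or a pseudocount of 1. The glutamate and aspartate carriers Slc1a1 (EAAT3) and Slc1a3 (GLAST) were highest in tumour 1 as well. Slc1a1 was at 9.15 against 7.85, 7.56 and 7.66, a gap of 1.29 to the next tumour. Slc1a3 was at 8.73 against 8.10, 7.84 and 7.43. The mainly neural glutamate carriers Slc1a2 and Slc1a6 were below the median throughout, and Slc1a6 had a range of 1.93 at low signal (4.67 to 6.60).

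In the Slc43 family, which lets large neutral amino acids pass by facilitated diffusion, Slc43a2 (LAT4) was above the median in all tumours, at 9.64, 9.53, 9.10 and 9.47. Slc43a1 (LAT3) was below it in all, between 7.02 and 7.45.

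The Slc6 family joins amino acid carriers to carriers of neurotransmitters and small osmolytes, driven by sodium. The taurine carrier Slc6a6 measured 10.59, 10.01, 10.20 and 9.96 on the probe set used, and its other probe set was below the median in all tumours (7.64, 7.31, 7.18 and 7.75). The creatine carrier Slc6a8 measured 9.54, 9.19, 9.73 and 9.65, and the glycine carrier Slc6a9 (GlyT1) 9.10, 9.29, 9.75 and 9.31. On the probe sets used, these 3 carriers were above the median in all tumours and none had a 2-fold range, whereas the glycine carrier of neurons, Slc6a5, was below it, between 4.71 and 4.82. Slc6a20a, a proline carrier, lay between 8.16 and 8.40, with a caution: its other probe set put tumour 4 highest (8.61 against 7.75 to 7.99), and signal shared with its close copy Slc6a20b, itself below the median, cannot be separated.

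Slc6a14, a broad carrier of neutral and cationic amino acids, was the member that set tumour 4 apart. It measured 5.64, 6.70, 6.18 and 8.28, a gap of 1.58 from tumour 4 to the next and a range of 2.64 log2. Tumours 1 to 3 were below the median, so the size is uncertain. Other markers also set tumour 4 apart. Of all named genes above the median in at least 1 tumour, 14.3% were highest in tumour 4 and 30.2% lowest there. The 3 red blood cell markers above the median in any tumour were all highest there, and the summed deposited signal of the 4 named ones was 9122 against 1956, 1355 and 2743. Of the 3, Alas2 and Slc4a1 were above the median in tumour 4 alone, so they had to be highest there. Of 8 milk protein markers 5 were lowest there, with a sum of 39381 against 66011, 59905 and 78242, as were 9 of 10 fibroblast markers. Their part in the value of Slc6a14 was not tested. Slc6a17, a vesicular carrier of neutral amino acids known from neurons, measured 6.00, 7.86, 6.94 and 7.85, so that it reached the median in tumours 2 and 4 and stayed under it in tumours 1 and 3. Which of tumours 2 and 4 was higher changed when the arrays were left as deposited.

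Of the 5 carriers of GABA and monoamines, Slc6a4 alone was above the median in any tumour. Slc6a4, the serotonin carrier found in nerve endings, platelets and some mast cells, was at 8.09, 8.14, 6.83 and 7.64, lowest in tumour 3. Of 5 mast cell and platelet markers above the median in at least 1 tumour, 4 were lowest in tumour 4 and Kit, the brightest, in tumour 3. The summed deposited signal of the 9 named markers was 4664, 4491, 2612 and 3377. Kit (11.32, 10.97, 10.22 and 11.08) was its largest single part, so the low sum in tumour 3 follows Kit and not the other 4. The part of these markers in the value of Slc6a4 was not tested. The noradrenaline carrier Slc6a2 (4.92 to 6.31), the dopamine carrier Slc6a3 (7.25 to 7.75) and the GABA carriers Slc6a11 and Slc6a13 were below the median. Of the remaining amino acid carriers, Slc6a15 (5.88 to 7.31) and the kidney gene Slc6a18 (5.15 to 7.11) had 2-fold ranges at signals below it, and the proline carrier Slc6a7 did not (6.83 to 7.47).

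Over the families, 29 members were above the median in at least 1 tumour, and 12 of them had a range of at least 1 log2, against 15.9% of all named genes above it in at least 1 tumour. This count has to be read by class, because a gene that is on both sides of the median must differ between tumours. Among members above the median in all 4 tumours, 2 of 17 had such a range, Slc7a7 and Slc7a6, which is close to the 9.85% of all named genes of that class. Among members above it in 1 to 3 tumours, 10 of 12 did, against 48.9%. A range of at least 2 log2 was found in 3 of the 29 members (Slc38a3, Slc6a14 and Slc7a7), against 3.75%. In 1 tumour, 4 members (Slc38a3, Slc38a5, Slc1a1 and Slc6a14) lay at least 1 log2 above each other tumour, against 5.41% of genes apart in either direction. These 2 shares are not split by class. All 4 were of the class above the median in 1 to 3 tumours, which held 12 of the 29 members but 1567 of 10182 genes. Slc38a3 and Slc6a14 passed the median only in the tumour where they were high. The median range was 0.54 among the 17 members and 0.49 among all 8615 genes above the median in every tumour.

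**Figure D3:**
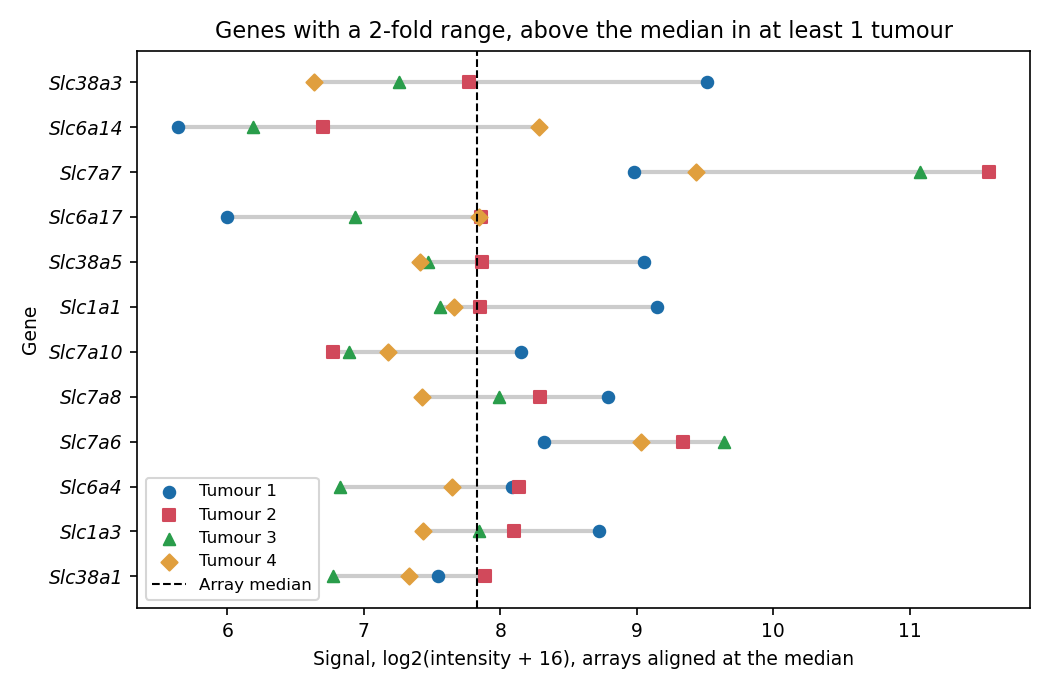
Signal of the 12 genes with a range of at least 1 log2 that were above the array median in at least 1 tumour (horizontal axis, log2(intensity + 16)), with 1 point per tumour, a grey bar from lowest to highest and a dashed line at the array median. Tumour 1 is the highest point of 6 genes and the lowest of 4. For 10 of the 12, the bar crosses the median.

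Tumour 1 held an extreme value of 10 of these 12 members. It was highest for Slc38a3, Slc38a5, Slc1a1, Slc7a10, Slc7a8 and Slc1a3, or 6 of 12, against 36.4% of all named genes with a 2-fold range, and lowest for Slc7a7, Slc7a6, Slc6a17 and Slc6a14, or 4 of 12, against 35.5%. With the values as deposited Slc6a4 was also highest there. Of all 29 members above the median in at least 1 tumour, 13 were highest in tumour 1, against 22.0% of all named genes of that class. With the values as deposited it was 16 members, against 29.0%. The median difference of tumour 1 from the mean of the other tumours was 0.20 among the 29 members and -0.12 among all genes of that class. The difference between the members and the rest has no replicate check. The sets are also unlike, since 12 of the 29 members were above the median in 1 to 3 tumours, against 1567 of 10182 genes. Slc38a3 and Slc7a10 were above it in tumour 1 alone, so they had to be highest there. The comparisons with all genes are therefore not read as a trait of the members. Without tumour 1, members with a 2-fold range fell from 12 to 4, namely Slc7a7, Slc6a14, Slc6a4 and Slc38a1. Slc38a3 kept a range of 1.14 but was then below the median in every tumour. Some fall was bound to follow, because tumour 1 held an extreme of 10 of the 12. The matching fall over all named genes is not given here.

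Markers of some other cell types moved with tumour 1, and those of others did not. Of all named genes above the median in at least 1 tumour, 22.0% were highest in tumour 1 and 32.5% in tumour 3. The shares lowest in tumour 1 and in tumour 4 were 42.4% and 30.2%. Of 12 macrophage markers, 10 were above the median, 9 of them highest in tumour 1, and the summed deposited signal of the 12 was 21172 in tumour 1 against 13104, 8058 and 12835. Itgam and Cd163 were below the median in all tumours. Luminal markers went the other way: 9 of 10 were lowest in tumour 1, with a summed signal of 33389 against 54558, 62302 and 55393. All 10 fibroblast markers were above the median in at least 1 tumour, 5 of them highest in tumour 1 and 5 in tumour 3, and 9 were lowest in tumour 4. Their summed signal was 40050, 30766, 36917 and 12708. Of 8 endothelial, 13 proliferation and 4 adipocyte markers above the median in at least 1 tumour, none was highest in tumour 1. Of 9 such basal markers 4 were, and of 8 milk protein markers 3. These bulk samples cannot tell fewer cells of a type from less RNA per cell, and the part of these cell types in the values of the transporters was not tested.

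Additional probe sets of the same gene gave a limited repeat measure that shares the RNA and the array. Of the 12 varying members, 4 had further probe sets, 9 in all, and 7 of the 9 showed the contrast between the highest and the lowest tumour in the same direction. The contrasts were 0.83 log2 for Slc1a1, 0.67 and -0.23 for Slc1a3, and 0.59 and -0.09 for Slc38a1. For Slc6a17 they were 0.40, 0.06, 0.05 and 0.12, against 1.86 on the probe set used, so the shared direction there says little. For Slc1a1 the other probe set was likewise highest in tumour 1, at 8.35 against 7.85, 7.52 and 7.61, a smaller difference. For Slc1a3, 1 further probe set was highest in tumour 1 (8.20 against 6.71 to 7.53) and the other was lowest there (6.77 against 7.00 to 7.07). For Slc38a1 the next probe set had its highest and lowest values in the same tumours (7.60 in tumour 2 and 7.01 in tumour 3), and the third lay between 4.25 and 4.58. The further 4 probe sets of Slc6a17 stayed below the median, and 3 of them were lowest in tumour 1. With the mean over all probe sets of a gene, the ranges of Slc1a3, Slc38a1 and Slc6a17 fell under 1 log2, to 0.69, 0.54 and 0.50. The members with the widest ranges, Slc38a3, Slc6a14 and Slc7a7, had 1 probe set each and so no such check.

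**Figure D4:**
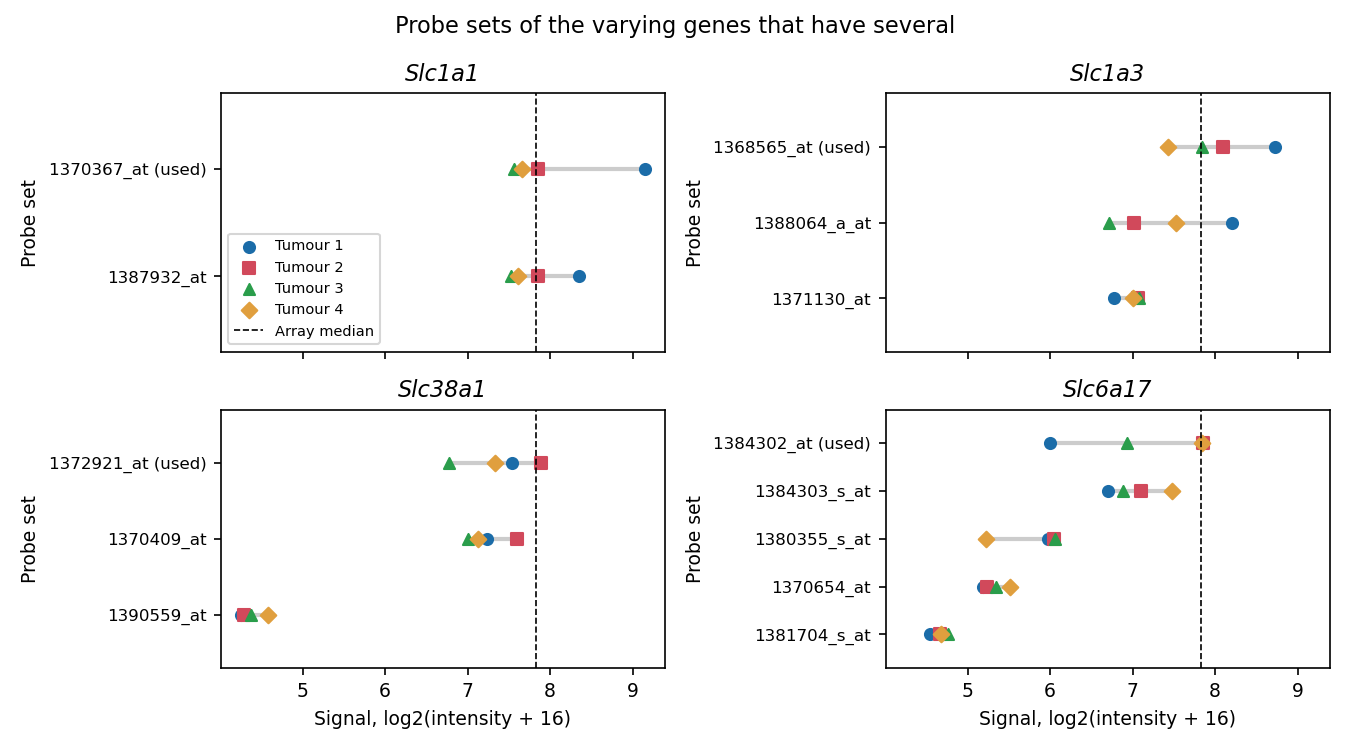
Signal of every probe set of the 4 varying genes that have several (horizontal axis, log2(intensity + 16)), with 1 row per probe set, 1 point per tumour and a dashed line at the array median; "used" marks the probe set of highest mean. Both rows of Slc1a1 place tumour 1 highest, while the rows of Slc1a3 disagree.

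Genes that act with the transporters are given as counts beside the shares over all named genes, of which 60.6% were above the median in all tumours and, of those above it in at least 1, 15.9% had a 2-fold range. Of 32 named genes of lysosomal amino acid sensing and mTORC1, 30 were above it in all tumours and none of these 30 had a 2-fold range. The widest of the 30 were the mTOR subunit gene Mlst8 (8.85, 9.28, 9.62 and 9.73) and Sesn3 (9.15, 8.87, 9.02 and 8.33), which encodes a sestrin. The Rag GTPase gene Rragd, below the median in all tumours, ran 6.48, 7.44, 7.68 and 7.08, a range of 1.19 at low signal. Of 26 named genes of the Atf4 amino acid response, 22 were above the median in all tumours, and 8 of the 25 above it in any had a 2-fold range. Atf4 itself was at 11.75, 12.15, 12.08 and 12.04, and its target Asns, asparagine synthetase, lay between 9.46 in tumour 4 and 10.23 in tumour 1. The widest of that list was the cystathionine beta-synthase gene Cbs (9.04, 10.46, 10.99 and 10.38), lowest in tumour 1, followed by Mthfd2, Ddit4 and Stc2. Ddit4, an mTORC1 inhibitor also induced by other stresses, was highest in tumour 1 (11.77 against 10.02 to 11.27), so the list did not move in 1 direction.

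Of 22 named genes of glutamine, glutamate, arginine and glutathione metabolism, 18 were above the median in all tumours, and 6 of the 22, all above it in at least 1, had a 2-fold range. Arg1, the arginase that splits arginine, measured 9.90, 11.49, 10.58 and 9.24, with tumours 2 and 3 highest, as for the arginine exchanger Slc7a7. Ass1, which starts arginine synthesis, was high in tumour 1, at 9.35 against 7.11, 7.74 and 7.31, and the nitric oxide synthase gene Nos2 measured 8.79, 8.62, 7.27 and 7.66. Got1, the next widest of the list, was lowest in tumour 1, at 8.56 against 9.92, 9.70 and 9.48. Of the 22, 9 were lowest in tumour 1 and 5 highest there. Over all named genes above the median in at least 1 tumour, the shares were 42.4% and 22.0%. Glul, glutamine synthetase, was at 12.65 in tumour 1 against 12.14 to 12.24, beside the higher values there of the system N carriers. With 4 tumours, such similarity of pattern is a description of values and was not tested.

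Carriers of other families, in cell organelles and at the surface, were examined in the same way. Of 16 named mitochondrial, lysosomal and vesicular amino acid carriers, 12 were above the median in all tumours and 2 of those 12 had a 2-fold range. These were the mitochondrial serine carrier Sfxn1 (8.43, 9.84, 10.07 and 9.66) and the lysosomal cationic amino acid exporter Slc66a1 (9.61, 10.39, 10.74 and 10.70), both lowest in tumour 1. The vesicular glutamate carriers Slc17a6 and Slc17a7, below the median in all tumours, had wider ranges at low signal, of 2.53 and 1.76. Of 7 named further plasma-membrane amino acid carriers and peptide carriers, 3 were above the median in any tumour. All 3 were highest in tumour 1, against 22.0% of all named genes of that class. Slc15a3 was above the median in tumour 1 alone, so it had to be highest there, and no trait is read from the count. The lead was small for Slc15a2 (8.75 against 8.70 in tumour 4) and Slc15a4 (9.72 against 9.46 in tumour 2). The one of the 3 with a 2-fold range, Slc15a3, a peptide and histidine carrier of lysosomes in immune cells, was at 8.43 against 7.37, 7.03 and 6.92. Below the median in all tumours, Slc15a1, the peptide carrier of the gut, had a range of 3.16 and the proton-coupled carrier Slc36a1 one of 1.68.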

How the data were processed

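Total RNA of 4 tumours was copied from the poly(A) tail with a dT primer, labelled with biotin and measured on 1 array each, per the labels' protocols, which favours the end of transcripts next to the poly(A) tail. The deposited values are linear intensity values that the authors had already brought to a common level. The software and the method of scaling or of correcting background were not given in the sources used here. Precision is limited by the number of arrays. Detection and saturation calls were not used here.

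Values were transformed as log2(intensity + 16), 57 control probe sets were left out, and each array was shifted by -0.07 to 0.06 to a common median. The platform annotation named a single gene for 20826 probe sets and several for 436 (not used), and 9831 had no entry. All 50 member symbols matched the RefSeq gene table of GRCr8. Of several probe sets, the one of highest mean was used. A member is named if it lay above the array median in all tumours or had a range of at least 1 log2. Up to 4 genes per pathway list were to be named, by largest range. Glul, Atf4 and Asns were named with their values known. Promoter motifs and the 5 windows shown were also chosen after the values were seen. Members and lists were chosen with earlier results of these data known. Alternatives were the pseudocount, the scaling, the probe set rule, the level filter and leaving out each tumour. The range rules were tested on simulated data. Python 3.11.15, NumPy 2.4.6 and pandas 2.3.3 were used.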

Additional observations from a re-analysis of the deposited data

Results flagged for a closer look

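In 3 of the 50 members, the gap between 1 tumour and the nearest of the others took up more of the whole range than Dixon's critical value for 4 samples allows. Chance alone marks about 1 in 20 groups. Slc7a5 was at 9.26 in tumour 1, 0.49 under the next tumour. Slc6a2 was at 4.92 in tumour 1 and Slc6a20b at 6.04 in tumour 4, and both genes were below the array median in every tumour.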

How the results depend on the processing

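The 17 members above the median in all tumours remained so under the pseudocounts of 1 and 64, with the values as deposited, after quantile normalization, with probe sets averaged and without any 1 tumour. With the median taken over named probe sets, which is a higher level, 12 of them did, and members with a 2-fold range fell from 12 to 7. With the 75th percentile in place of the median, 5 were above it in all tumours, 38 below it in all, 3 had a 2-fold range and 1 was apart in 1 tumour. Without a level filter 20 had a 2-fold range and 7 were apart in 1 tumour. A changed level or filter alters the counts over all genes too. The matching shares over all named genes are not given here, so these changes are not read as a trait of the transporters. Leaving out 1 tumour at a time gave 4 to 10 members with a 2-fold range, the lowest without tumour 1, and 2 to 7 apart in 1 tumour against 4 with all, with 2 without tumour 1 and 7 without tumour 4. The other 48 recomputed counts stayed within 1.5 times the reported count. No paired analysis was possible because there is 1 group. Signals below the array median limit how far the ranges of dim members can be read.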
